A study of Mus musculus with 18 samples.

Results

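What interferon-γ (IFN-γ) changed in mouse eosinophils that met *E. coli* at the same time is described here. The members are the 6 libraries that the submitters' sample names place with *E. coli* alone or with IFN-γ and *E. coli*, 3 in each group, out of 18 libraries in the series. The study set eosinophils under stimuli of Type 1 and Type 2 environments and measured their RNA in CEL-Seq2 libraries, which tag the 3′ end of each transcript. All cells were washed from the peritoneal cavity of mice of line NJ.1638 on the C57BL/6 background, which carry an *Il5* transgene that expands eosinophils, and cells bound by antibodies to Thy1.2 or B220 were taken out on beads. The cells then stood for 18 h with heat-inactivated *E. coli* alone, or with the same *E. coli* and 50 ng/ml of IFN-γ. The eosinophils of both groups had therefore developed in animals with excess IL-5, and the animals' age and sex are not given in the sources used here. As background, 3 unstimulated libraries (a to c) and 3 libraries with 50 ng/ml of IFN-γ alone were taken from the same set of files and fitted in the same model of 12 libraries.

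Counts on genes were 2318235, 2734041 and 1980073 in libraries 1 to 3 with *E. coli* alone, and 1523808, 1970637 and 1719468 in libraries 1 to 3 with IFN-γ and *E. coli*. Levels are given as CPM, counts scaled to a common library size with TMM factors. The floor was set at 3 counts in a library, which is 1.00 to 2.19 CPM here. The floor covers counting error only. The paper speaks of biological replicates, but neither it nor the labels say whether libraries of a group came from separate cultures or animals, so the p-values measure the spread between these libraries. No gene had more than 4095 counts in any of the 12 libraries, just under the 4096 different tags that a 6-base molecular identifier allows. Genes with more than 2048 counts in any of the 6 libraries, 232 in all, are therefore also given after a correction for identifiers met more than once, where they are named. Counting is not stated to use strand, so counts are uncertain for genes whose exons overlap those of an antisense gene, among them *Batf2*, *Bcl2*, *Bnip3*, *Ch25h*, *Csf1r*, *Ctsb*, *Cxcl10*, *Gata6*, *Hif1a*, *Icam1*, *Il5*, *Irf1*, *Myd88*, *Nlrc5*, *Pdia3*, *Psmb8*, *Ptgs1*, *Pycard*, *Rfx5*, *Tap2* and *Usp18*, and for *Ifi47*, *Igtp* and *Parp14*, which overlap a gene on the same strand. The counts of named genes with a near-identical copy, such as the 3 *Bcl2a1* genes, *Ifit3* and *Ifit3b*, *Tgtp1* and *Tgtp2*, *Serpina3f* and *Serpina3g*, *Mx1*, *Ass1*, *Mif*, *Ldha*, *Socs2*, *C4b*, *Csf2rb* and the class I chains, are uncertain as well, since reads that fit more than 1 place were not counted. The same limit holds for *Gbp4*, *Gbp8*, *Gbp9*, *Gbp11*, *Gm12185*, *Bnip3*, *Siglecg*, *Herc6*, *Isg15*, *Scd2*, *Fpr2*, *Cxcr2*, *Tapbpl*, *Cd79a* and *Cma1*. A stretch of their transcripts matches another gene.

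IFN-γ binds a receptor of the chains IFNGR1 and IFNGR2, and the signal passes from the Janus kinases on it to promoters with the gamma-activated site (GAS). Among the first genes it raises are those of further transcription factors, such as IRF1 and CIITA, which carry the response on to antigen presentation and to GTPases that act on intracellular microbes. Parts of *E. coli* such as lipopolysaccharide are sensed by Toll-like receptors, which act through NF-κB to raise cytokines and chemokines. Eosinophils, granulocytes that depend on IL-5, are best known from allergy and helminth infection.

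The labelled cell type was checked against 13 eosinophil markers. Their summed level was 5383, 4777 and 5404 CPM in libraries 1 to 3 with *E. coli* alone and 5059.9, 4467 and 5005 CPM in libraries 1 to 3 with IFN-γ and *E. coli*, against 5264, 6954 and 5500.1 CPM in unstimulated libraries a to c. The most abundant was *Ccr3*, the eotaxin receptor, and *Siglecf*, *Alox15*, *Adgre1* and *Gata1* were also present in all 6 libraries. *Alox15* and *Adgre1* were not called, at -0.23 and 0.13 (corrected -0.75 and -0.09). *Ccr3*, *Alox15* and *Adgre1*, with up to 3576, 3309 and 2739 counts, make up most of the sums in the 6 libraries. The sums are not corrected for the ceiling and can hide a change of these genes. Of 9 markers with enough counts to test, 4 were called lower with IFN-γ (*Siglecf*, *Cebpe*, *Prg2* and *Ear6*) and 0 were called higher. Over all genes tested 15.3% were called lower and 17.5% higher, and with IFN-γ alone 16.0% and 15.6%, and the marker counts here and in the next paragraph stand against these. *Epx* and *Prg3*, which encode granule proteins, had at most 3 counts in each of the 6 libraries.

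Markers of other peritoneal cells differed between the groups too. Over 8 B cell markers the sum was 57.1, 70.2 and 121 CPM with *E. coli* alone and 178, 202 and 231 CPM with IFN-γ and *E. coli*, although beads against B220 would remove B cells. All 6 that could be tested were called higher (among them *Cd79a*, *Cd79b*, *Ms4a1*, *Ighm* and *Igkc*), the most abundant over the 6 libraries together was *Igkc*, and *Fcer2a* had at most 3 counts in each of the 6 libraries. Unstimulated libraries held 314, 305 and 188 CPM and libraries with IFN-γ alone 163, 104 and 85.0 CPM, and with IFN-γ alone 5 of the 6 were called lower. Over 10 macrophage markers the sum was 697, 629 and 1015 CPM with *E. coli* alone and 1310.2, 1480.4 and 1676 CPM with both, against 1106, 974 and 1084 CPM in unstimulated libraries and 1561, 1501 and 1472 CPM with IFN-γ alone. *Marco*, *Mertk*, *Timd4*, *C1qb* and *C1qc* were called higher, while *Csf1r*, the most abundant on the same basis, *Gata6* and *C1qa* were not called. The sums with *E. coli* alone were highest in library 3 for B cells and for macrophages, and the groups did not overlap for either. The mast cell genes *Cma1* and *Tpsb2* and the dendritic cell gene *Ccr7* were called higher as well, with sums over their 7 markers each of 10.2, 6.69 and 34.6 against 37.2, 74.0 and 67.3 CPM and 8.16, 13.7 and 16.3 against 30.7, 42.7 and 27.0 CPM. *Ccr7*, the only dendritic cell marker that could be tested, carries most of the rise in its sum, at 2.45, 3.68 and 7.90 against 21.2, 31.8 and 21.1 CPM. *Siglech*, another of them, was at 1.63, 4.68 and 3.95 against 2.92, 2.19 and 1.32 CPM. Markers of both cell types are scarce, as is seen from *Tpsb2*, the more abundant mast cell gene over the 6 libraries together, at 4.08, 3.68 and 16.3 against 19.0, 29.0 and 25.1 CPM. With both stimuli *Cma1* was at 13.1, 32.9 and 33.0 CPM. Over 9 neutrophil markers the sums were 450.3, 425 and 487 and 353, 413 and 435 CPM, with *Ly6g* called higher, *Cxcr2* lower, *Retnlg* the most abundant and *Elane*, *Mpo* and *Ngp* at 3 counts or fewer in each of the 6 libraries. *Cd3e* and *Trac* of T cells had 0 counts in all 6 libraries and 7 of 9 T cell markers had at most 3 counts in each, as had all 6 markers of NK cells and all 5 of mesothelial cells. In RNA from a mixture, fewer cells of a type and less RNA per cell cannot be told apart, and the part of these cells in the results below was not tested.

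**Figure D1:**
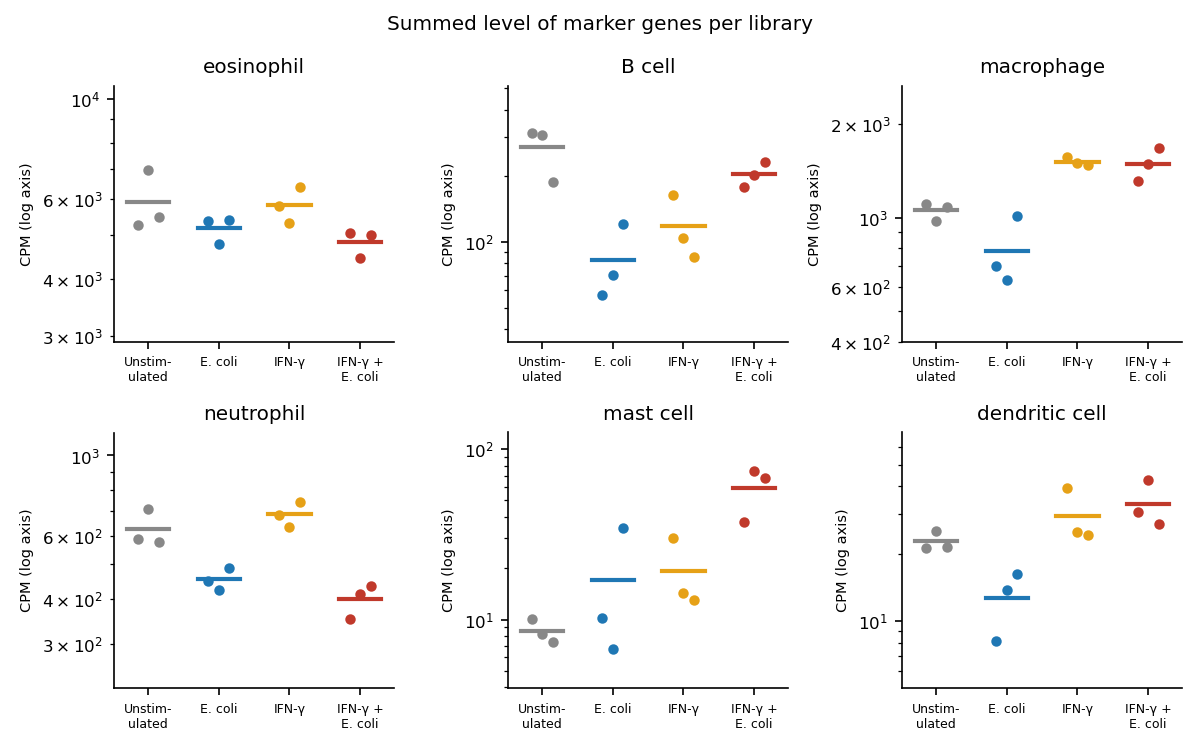
Summed level of marker genes of 6 cell types (vertical axis, CPM, logarithmic) in each of the 12 libraries, 1 dot per library with the group mean as a bar, by group along the horizontal axis. Eosinophil markers sum to between 4467 and 6954 CPM, without correction for the ceiling on counts, and the B cell and macrophage sums are higher in each library with IFN-γ and *E. coli* than in any with *E. coli* alone.

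On the TMM scale, addition of IFN-γ to *E. coli* changed the RNA of about as many genes upward as downward. This balance is largely fixed by the scaling and is not read as a result. The chemokine gene *Cxcl9*, almost all interferon-induced GTPase genes, most genes of antigen presentation and almost all of those of glycolysis and hypoxia rose. Carbonic anhydrase 4 (*Car4*), the leukotriene B4 receptors, *Cxcr2*, *Il19*, *Siglecf* and *Siglecg*, and the survival genes *Bcl2* and *Bcl2l1* fell. Of 9883 genes tested, 1725 (17.5%) were called higher and 1515 (15.3%) lower by edgeR's quasi-likelihood test at a Benjamini-Hochberg adjusted p under 0.05, and 753 and 572 of these changed by a factor of 2 or more. The counts of the lists below stand against these shares of 17.5% and 15.3%. The median log2 fold change over all genes tested was -0.02. Scaling by library totals alone in place of TMM moved the median by -0.23 on the log2 scale and gave 1097 genes higher and 2859 lower, so all changes below are relative to the TMM scale. It raised the number called lower by over 1.5 times in 10 of the 26 lists below, such as from 5 to 8 for cytokines and from 2 to 5 for complement. Of 191 called genes named in the text, 175 kept direction and call in each alternative fit that tested them (all of these fits for 139 of the 191), and the call was lost or the sign changed in at least 1 for *B2m*, *Ccl6*, *Ccl9*, *Csf2rb*, *Cxcl10*, *Cxcl5*, *Fcgr1*, *Gbp2b*, *H2-D1*, *Hif1a*, *Icosl*, *Ifit3b*, *Ifngr1*, *Il10*, *Lcn2* and *Nfkbia*.

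The largest changes are named from the called genes whose groups did not overlap and whose mean reached 10 CPM in either group, 1514 higher and 1327 lower. They are ranked by the fitted log2 fold change, and where a group had at most 3 counts in each library only a bound is given, so the rank of such a gene is not known. Among genes above that floor in both groups the largest rise was that of *Cxcl9*. *Cxcl9* (ENSMUSG00000029417, chr5:92321347-92328079 of GRCm38), a chemokine that draws T and NK cells through CXCR3, was at 6.12, 1.67 and 3.46 CPM with *E. coli* alone and 256, 357 and 450.4 CPM with IFN-γ and *E. coli* (log2 fold change 6.59, SE 0.29, edgeR adjusted p = 8.9e-12). Its unstimulated level, 3.18 CPM on average, was as low as that with *E. coli*, and all 6 libraries that received IFN-γ were far above the 6 that did not. *Stc2*, which encodes the secreted protein stanniocalcin 2, had 0, 0 and 1 counts with *E. coli* alone and 43, 30 and 22 with both, a rise of at least 16.8-fold. *Clic5*, a chloride channel gene, rose from 6.53, 4.68 and 8.89 to 238, 226 and 281 CPM (log2 fold change 5.25, SE 0.22, edgeR adjusted p = 3.8e-12), with 3.72 CPM in unstimulated cells. *Lair1*, an inhibitory receptor for collagen, was at 8.16, 5.02 and 5.43 CPM and then 174, 163 and 113 CPM (log2 fold change 4.59, SE 0.22, edgeR adjusted p = 1.8e-11). For both genes every library that received IFN-γ, alone or with *E. coli*, was above every one that did not.

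The rest of the 15 rises ranked highest included GTPases, protease inhibitors and *Il12b*. *Gbp8* and *Gm12185*, the latter an immunity-related GTPase gene that RefSeq also names Irgb2b1, had log2 fold changes of 5.42 and 5.38. Exons of *Gbp8* overlap those of *Gbp4* and *Gbp9* on the same strand, and those of *Gm12185* overlap *Tgtp1*, so their counts are uncertain. *Serpina3g*, *Serpina3f*, *Focad* and *Il12b* had at most 3 counts in every library with *E. coli* alone, and the lower bounds of their rises were 15.4-fold, 18.3-fold, 14.7-fold and 14.7-fold. *Focad* overlaps exons of *Hacd4* on the opposite strand, and since the counting is not stated to use strand, its counts are uncertain too. *Gm12216* rose by 4.76 on the log2 scale, *Calhm6*, an ion channel gene, by 4.67, *Mgarp*, a mitochondrial protein gene, by 4.63, *Rnf225* by 4.48 and *Ramp3*, which encodes a partner of the calcitonin-like receptor, by 4.43. All 15 were also called higher with IFN-γ alone, and 12 of the 15 falls below were called lower there, against 15.6% and 16.0% of all genes tested.

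*Ltb4r2* (ENSMUSG00000040432, chr14:55761428-55765138), the low-affinity receptor for leukotriene B4, fell: it had 78, 88 and 74 counts with *E. coli* alone and 0, 1 and 0 with both, at least 16.8-fold lower. *Car4* (ENSMUSG00000000805, chr11:84957786-84966044), a membrane-bound carbonic anhydrase, stood at 1316, 1150.2 and 1361 CPM with *E. coli* alone and 41.6, 52.6 and 37.6 CPM with both (log2 fold change -4.85, SE 0.17, edgeR adjusted p = 5.5e-13). In unstimulated cells its mean was 655 CPM, so the level with both stimuli lay far below the background and that with *E. coli* alone above it. After correction for the ceiling the log2 fold change of *Car4* was -5.76. *Ccn3*, a matricellular protein gene, was at 87.7, 84.6 and 85.4 CPM and then 0.730, 3.84 and 2.64 CPM (log2 fold change -5.05, SE 0.26, edgeR adjusted p = 4.8e-11), and *Il19*, a cytokine gene of the IL-10 family, at 45.3, 48.8 and 93.3 and then 1.46, 3.84 and 4.62 CPM (log2 fold change -4.16, SE 0.39, edgeR adjusted p = 1.1e-07). For both genes the lowest library with *E. coli* alone was far above the highest with IFN-γ added.

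The other large falls were of genes with varied roles. *Neb*, a gene of the muscle sarcomere, *Ikzf4*, a transcription factor gene, and *Smpd3*, a sphingomyelinase gene, fell with log2 fold changes of -3.87, -3.74 and -3.57, and exons of each overlap an antisense gene. *Sytl1*, whose product acts in granule secretion with Rab27, fell with a log2 fold change of -3.67, *Grm6*, a glutamate receptor gene, with one of -3.42, *Lama5*, a laminin gene, with one of -3.35, *Adra2a*, an adrenoceptor gene, with one of -3.26 and *Spns3*, a transporter gene, with one of -3.22. *Gm37018*, *Spint1* and *Cnksr3* had at most 3 counts in each library with both stimuli and fell, with lower bounds of 5.71-fold, 8.92-fold and 6.06-fold. *Lama5* is an example of a gene that stood above background with *E. coli* alone, with 7.82, 9.51 and 11.2 CPM in unstimulated libraries, 152, 151 and 128 CPM with *E. coli* and 16.1, 13.1 and 13.2 CPM with IFN-γ added.

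**Figure D2:**
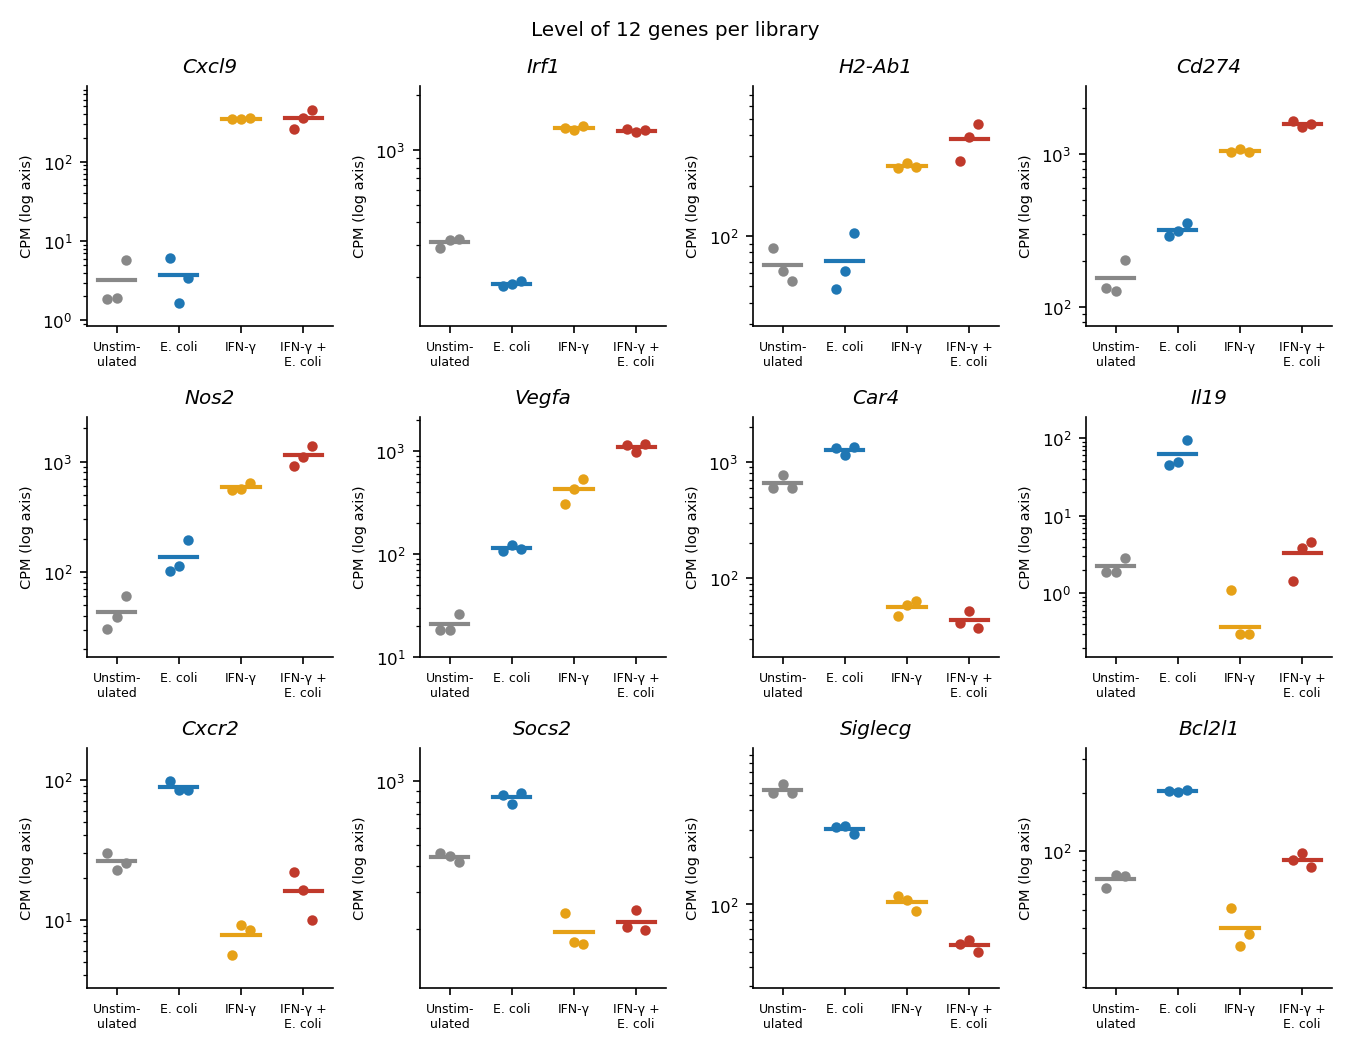
Level of 12 genes (vertical axis, CPM, logarithmic; a value of 0 is drawn at 0.3 CPM) in each of the 12 libraries, 1 dot per library, with the group mean as a bar, for unstimulated eosinophils, *E. coli* alone, IFN-γ alone and both. *Cxcl9*, *Irf1*, *H2-Ab1*, *Cd274*, *Nos2* and *Vegfa* are higher in every library with both stimuli than in any with *E. coli* alone, and *Car4*, *Il19*, *Cxcr2*, *Socs2*, *Siglecg* and *Bcl2l1* are lower.

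Of 25 genes of the receptor, the JAK and STAT proteins, the interferon regulatory factors and the SOCS inhibitors that could be tested, 11 were called higher and 2 lower, against 17.5% and 15.3% of all genes tested, with a median log2 fold change of 0.31. *Irf1*, a transcription factor gene, was at 178, 183 and 191 CPM with *E. coli* alone and 1299, 1250.3 and 1284 CPM with both, against 312 CPM unstimulated (log2 fold change 2.80, SE 0.11, edgeR adjusted p = 8.9e-13). The groups did not overlap, and IFN-γ brought *Irf1* above its unstimulated level, while *E. coli* alone was below it. *Irf8* rose from 7.75, 6.02 and 18.3 to 48.2, 70.7 and 77.8 CPM. The corrected log2 fold change of *Irf1* was 3.20. *Stat2* rose by 1.43, *Stat3* by 1.05 and *Irf2* by 1.03, and *Stat3* overlaps exons of *Stat5a* on the opposite strand. *Socs1*, the feedback inhibitor of this pathway, rose by 0.53 only (corrected 0.53), from a level with *E. coli* of 865 CPM that was already above the unstimulated 509 CPM. *Socs2*, an inhibitor that IL-5 signalling raises through STAT5, fell with a log2 fold change of -1.96 (corrected -2.35), from 864, 783 and 883 to 204, 247 and 199 CPM, with every library with both stimuli below every one with *E. coli* alone. The receptor chain gene *Ifngr1* fell with a log2 fold change of -0.54, and *Ifngr2* at -0.23, *Jak1* at 0.23 and *Jak2* at 0.13 were not called. The genes called lower were 1 instead of 2 without library 2 of either group, and 5 under scaling by library totals.

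The RNA of the interferon-induced GTPases, proteins that gather on the vacuoles of intracellular microbes, rose almost without exception. All 10 guanylate-binding protein genes tested were called higher, with a median log2 fold change of 2.85, or 2.21 with *Gbp2b* and *Gbp11*, which were at or under 3 counts with *E. coli* alone, set at the floor there. No fold is given for *Gbp2b*, whose mean with both stimuli was 1.06 CPM. *Gbp4* rose from 42.8, 39.8 and 61.7 to 759, 745 and 675 CPM (log2 fold change 3.93, SE 0.15, edgeR adjusted p = 7.6e-13) and *Gbp2* from 219.9, 228 and 385 to 2402, 1993 and 2282 CPM (log2 fold change 3.01, SE 0.18, edgeR adjusted p = 4.0e-10, corrected log2 fold change 4.05). Of 10 immunity-related GTPase genes tested, 9 were called higher and *Irgq*, at 0.47, was not, with a median of 2.35, or 2.31 with *Tgtp2* at its bound. *Iigp1* rose by 3.20, *Igtp* by 2.66 (corrected 3.12), *Ifi47* by 2.32 (corrected 2.87) and *Irgm1* by 1.85 on the log2 scale. The unstimulated means of *Gbp4* and *Iigp1*, 64.6 and 79.9 CPM, were near those with *E. coli* alone, 48.1 and 48.9 CPM, so the libraries with both stimuli stood far above either.

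The RNA of antigen presentation genes rose in both classes. Of 10 MHC class II genes tested, 9 were called higher, with a median of 2.42. *H2-Ab1*, a chain of the class II molecule, was at 48.5, 61.9 and 104 CPM with *E. coli* alone and 280.5, 390.1 and 469.5 CPM with both, against 85.0, 62.1 and 53.7 CPM in unstimulated libraries (log2 fold change 2.43, SE 0.22, edgeR adjusted p = 9.1e-08). *Cd74*, the invariant chain, rose from 35.9, 39.5 and 78.5 to 209, 327 and 309 CPM (log2 fold change 2.49, SE 0.23, edgeR adjusted p = 8.4e-08). For both genes each library with both stimuli was above each with *E. coli* alone. *Ciita*, the master activator of these genes, had 0, 0 and 2 counts with *E. coli* alone and 11, 14 and 12 with both, at least 6.37-fold higher, and it overlaps exons of *Dexi* on the opposite strand. *H2-Aa* rose by 2.59, *H2-Eb1* by 2.40 and *Ctss*, a protease that trims the invariant chain, by 1.09, whereas *Rfx5*, at 0.70, was not called. B cells and macrophages carry class II molecules without any stimulus, and their marker sums rose in the same libraries, from 57.1, 70.2 and 121 to 178, 202 and 231 CPM for B cells and from 697, 629 and 1015 to 1310.2, 1480.4 and 1676 CPM for macrophages; their part in the class II result was not tested.

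Of 24 genes of MHC class I presentation, 20 were called higher and 0 lower, with a median of 1.23. *Nlrc5*, the activator of class I genes, was at 76.3, 72.9 and 68.1 CPM with *E. coli* alone and 362, 334 and 452 CPM with both (log2 fold change 2.40, SE 0.16, edgeR adjusted p = 1.0e-09), and *Tapbpl*, a peptide editor, at 44.5, 41.5 and 46.4 and then 301, 279 and 243 CPM (log2 fold change 2.64, SE 0.13, edgeR adjusted p = 1.8e-11). Neither gene's groups overlapped. The immunoproteasome genes *Psmb9*, *Psmb10* and *Psmb8* rose by 2.08, 1.75 and 1.57, and the peptide transporter genes *Tap1* and *Tap2* by 1.66 and 1.92. *Psmb9* and *Tap1* overlap on opposite strands, so their counts are uncertain. The class I chains *H2-K1* and *H2-D1* and *B2m* were called higher, at 0.63, 0.61 and 0.65 (corrected 0.63, 0.43 and 0.75). They reached 3724, 4009 and 4091 counts, so close to the ceiling that no direction is read for them. The chaperone genes *Calr*, at -0.05, *Canx*, at 0.10, and *Pdia3*, at 0.09, were not called.

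Genes best known from the response to type I interferon were called higher for the most part, 28 of 42, with 1 lower and a median of 0.75. *Ifit2*, which binds viral RNA, was at 151, 131 and 206 CPM unstimulated, 39.6, 41.5 and 64.2 CPM with *E. coli* alone and 196, 252 and 262 CPM with both (log2 fold change 2.31, SE 0.19, edgeR adjusted p = 1.7e-08). Its level with *E. coli* alone was the lowest of these groups, and IFN-γ brought it to the range of unstimulated cells or above. *Herc6* rose by 1.75, *Parp14* by 1.58, *Mx1* by 1.22 and *Oasl2* by 1.02 on the log2 scale. *Isg15* rose by 0.71 (corrected 0.76) and *Rsad2* by 0.89 (corrected 1.17). *Ifit3b* fell with a log2 fold change of -0.56, and *Ifit3*, *Bst2*, *Oas2* and *Usp18*, at 0.16, 0.11, 0.09 and 0.08, were not called. The number lower was 0 without *E. coli* library 3, without libraries 1 or 2 of both stimuli, and under DESeq2. With IFN-γ alone 12 of the 42 were called higher and 9 lower, against 15.6% and 16.0% of all genes tested.

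**Figure D3:**
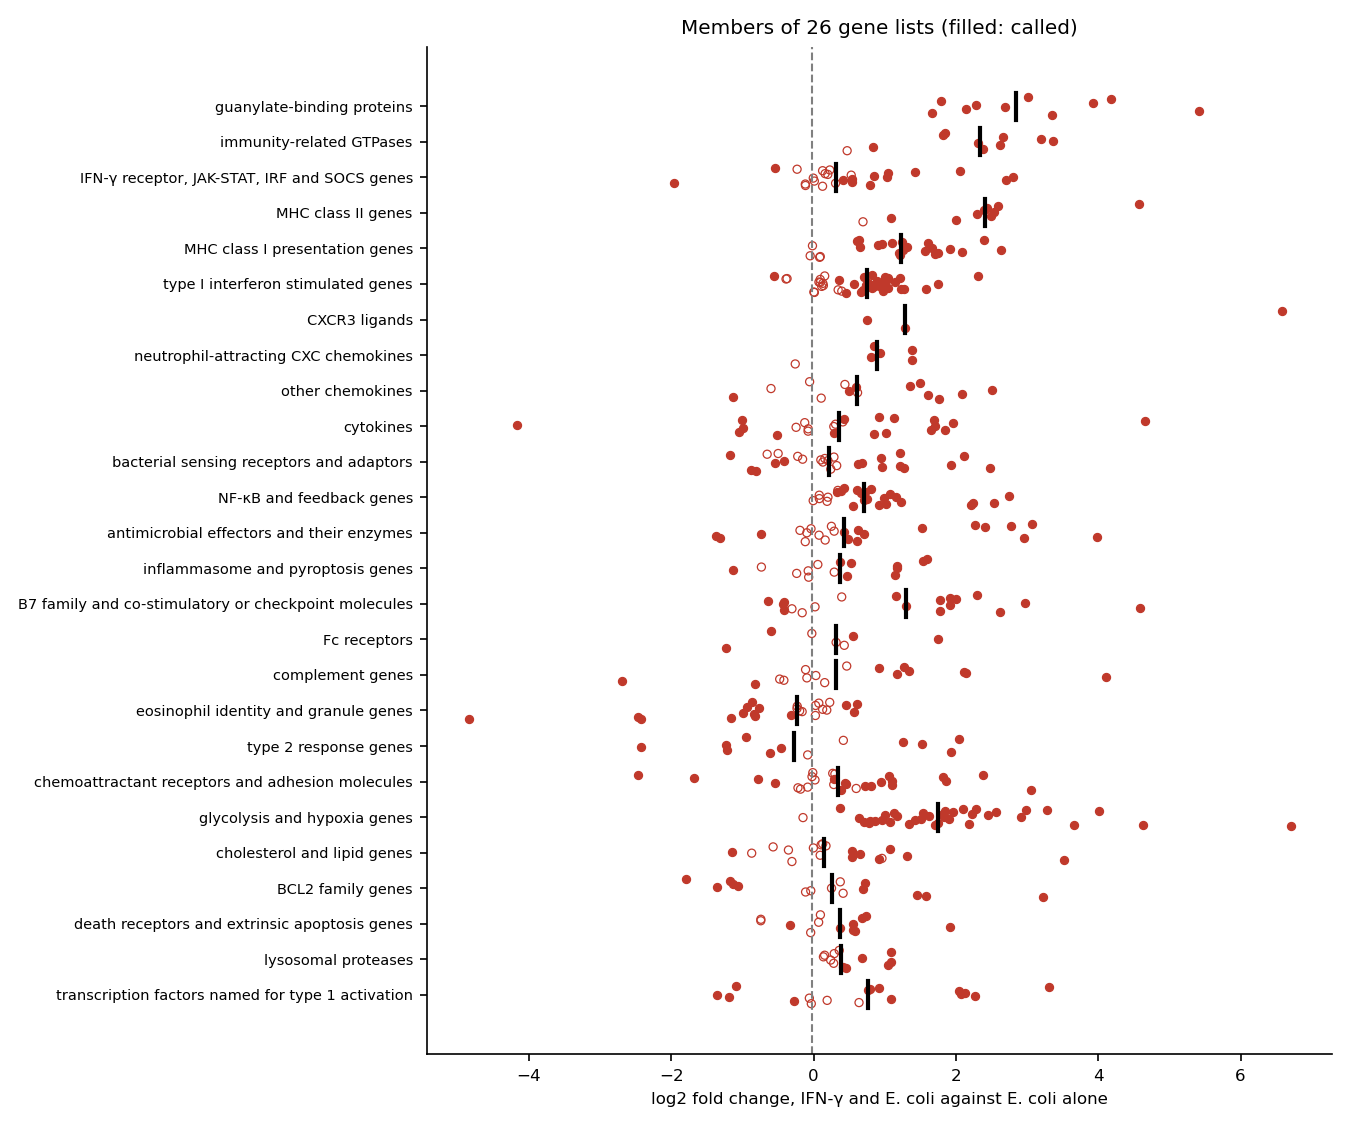
Log2 fold change (horizontal axis, IFN-γ and *E. coli* against *E. coli* alone) of each tested member of 26 gene lists, 1 dot per gene, filled where called and drawn as fitted where a group is at or under 3 counts, with the list's median as a bar; the dashed line is the median of all genes tested, -0.02. Guanylate-binding proteins, immunity-related GTPases, MHC class II and glycolysis and hypoxia genes lie to the right, while eosinophil identity genes and type 2 response genes have medians of -0.23 and -0.27; under scaling by library totals the medians of bacterial sensing genes and of cholesterol genes change sign, to -0.01 and -0.08.

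The RNA of secreted proteins changed selectively. All 3 CXCR3 ligand genes were called higher (median 1.29), but next to *Cxcl9* the changes of *Cxcl11* (1.29) and *Cxcl10* (0.75) were small and their groups overlapped. Of 6 genes of neutrophil-attracting CXC chemokines 5 were called higher (median 0.90). *Cxcl2* rose from 655, 668 and 992 to 2009.9, 1906 and 2095 CPM (log2 fold change 1.38, SE 0.16, edgeR adjusted p = 2.1e-06, corrected log2 fold change 1.93) and *Cxcl3* by 0.94 (corrected 1.46), *Ppbp* by 1.38, *Cxcl1* by 0.85 and *Cxcl5* by 0.80, and only the groups of the last 2 genes overlapped. The unstimulated means were 202 CPM for *Cxcl2* and 60.1 CPM for *Cxcl1*, so these genes stood above background with *E. coli* alone and higher still with IFN-γ added. Among 14 other chemokine genes 8 were called higher and 1 lower (median 0.60). *Ccl8*, *Ccl22*, *Ccl3* and *Ccl5* rose by 2.51, 2.08, 1.50 (corrected 1.85) and 1.36 (corrected 1.67) on the log2 scale, and *Cxcl13*, which draws B cells, fell with a log2 fold change of -1.13. Without *E. coli* library 1 or library 3 of both stimuli 2 were called lower. *Ccl6* and *Ccl9*, at 0.59 and 0.50, lie at the ceiling and changed sign under its correction (-0.35 and -0.10), so no direction is read for them, and *Ccl2*, at -0.05 (corrected -0.26), and *Ccl4*, at 0.44, were not called.

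Of 24 cytokine genes 12 were called higher and 5 lower, against 17.5% and 15.3% of all genes tested, with a median of 0.36. Besides *Il12b*, which encodes the p40 chain of IL-12 and IL-23, the rises included *Il15*, a growth factor of NK and memory T cells, by 1.97. *Il6* was at 16.4, 18.4 and 24.8 CPM unstimulated, 121, 141 and 198 CPM with *E. coli* alone and 413, 548 and 512 CPM with both (log2 fold change 1.69, SE 0.16, edgeR adjusted p = 1.2e-07). *Il1b* rose from 396, 403 and 723 to 945, 1148 and 1215 CPM (log2 fold change 1.12, SE 0.19, edgeR adjusted p = 1.3e-04, corrected 1.28), and *Il33* by 1.71. For *Il6* and *Il1b* the 3 libraries with both stimuli were above the 3 with *E. coli* alone, and those above the unstimulated ones. *Il1b* overlaps exons of *Il1bos* on the opposite strand. Among the falls, *Il13*, a type 2 cytokine gene, was at 10.1 CPM on average unstimulated, 184, 209 and 196 CPM with *E. coli* alone and 99.3, 98.6 and 98.9 CPM with both (log2 fold change -0.99, SE 0.17, edgeR adjusted p = 2.1e-04), with no overlap between the last 2 groups. *Il10*, an inhibitory cytokine gene, fell with a log2 fold change of -1.01 with overlapping groups, *Ltb* with one of -1.05 and *Tgfb1* with one of -0.52. *Tnf*, at -0.07, *Il4*, at 0.28, and *Il5*, at -0.25 (corrected -0.49), which the transgene also provides, were not called.

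Of 26 genes of receptors that sense bacteria and their adaptors 10 were called higher and 5 lower, against 17.5% and 15.3% of all genes tested, and their median of 0.22 was -0.01 under scaling by library totals. *Tlr4*, the receptor for lipopolysaccharide, was at 23.5, 22.2 and 28.1 CPM unstimulated, 41.2, 39.1 and 44.9 CPM with *E. coli* alone and 20.4, 18.6 and 16.5 CPM with both (log2 fold change -1.17, SE 0.18, edgeR adjusted p = 4.3e-05), while *Cd14*, its co-receptor, rose by 0.94 (corrected 1.11). *Tlr4* was lower in each library with both stimuli than in each with *E. coli* alone. *Trem1*, an activating receptor of myeloid cells, fell with a log2 fold change of -0.89, from a mean of 221 to 119 CPM, which is still far above its unstimulated 8.49 CPM. *Clec4n*, a lectin receptor for fungal and bacterial glycans, rose by 2.49, *Tlr6* by 2.11, *Nod1* by 1.93 and *Ripk2*, the kinase of the NOD receptors, by 1.21 on the log2 scale. *Myd88* and *Tlr2*, at -0.15 and -0.50, were not called. Without *E. coli* library 2 or libraries 1 or 3 of both stimuli, and under DESeq2, 3 were called lower. Of 27 genes of NF-κB and its feedback 21 were called higher and 0 lower (median 0.71). *Tnfaip2* rose by 2.75, *Atf3*, a repressor of inflammatory genes, by 2.53, *Tnfaip3*, which encodes the ubiquitin-editing enzyme A20, by 1.16, and *Nfkbia*, the inhibitor IκBα, by 0.33.

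Of 23 genes of antimicrobial effectors and their enzymes 12 were called higher and 3 lower (median 0.43, and 0.26 after correction for the ceiling). *Nos2*, inducible nitric oxide synthase, was at 30.6, 38.7 and 59.9 CPM unstimulated, 103, 113 and 196 CPM with *E. coli* alone and 919.5, 1111 and 1396 CPM with both (log2 fold change 3.07, SE 0.23, edgeR adjusted p = 5.4e-09, corrected 3.46). *Wars*, a tRNA synthetase gene that IFN-γ raises in many cells, rose from 37.9, 39.8 and 49.9 to 735, 619 and 652 CPM (log2 fold change 3.98, SE 0.14, edgeR adjusted p = 6.7e-13). In both cases the libraries with IFN-γ added stood apart from all 3 with *E. coli* alone. *Acod1*, which makes itaconate, rose by 2.28, *Nampt*, of NAD synthesis, by 2.96 (corrected 3.62), and *Ass1*, which renews arginine, by 2.40. *Pglyrp1*, which binds bacterial peptidoglycan, fell with a log2 fold change of -1.37, *Ch25h* with one of -1.31 and *Lcn2*, which withholds iron from bacteria, with one of -0.74. Among 15 inflammasome and pyroptosis genes 8 were called higher and 1 lower (median 0.37): *Casp1* rose by 1.60, *Casp4*, which binds lipopolysaccharide in the cytosol, by 1.54 and *Nlrp3* by 1.17, with overlapping groups for the last, and the adaptor gene *Pycard* fell with a log2 fold change of -1.13. Without *E. coli* library 1 the number higher was 5.

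The RNA of surface molecules that meet T cells rose in part. Of 19 genes of the B7 family and of co-stimulatory or checkpoint molecules 11 were called higher and 4 lower (median 1.30). *Cd274*, the checkpoint ligand PD-L1, was at 133, 127 and 203 CPM unstimulated, 291, 311 and 355 CPM with *E. coli* alone and 1625, 1494 and 1561 CPM with both (log2 fold change 2.29, SE 0.15, edgeR adjusted p = 7.1e-10, corrected 2.77). The 3 groups did not overlap. *Cd86*, which co-stimulates T cells through CD28, rose by 1.91, *Cd40* by 2.00 and *Cd200* by 2.98, whereas *Cd80*, at 0.40, was not called and *Icosl* fell with a log2 fold change of -0.64. The number lower was 1 without *E. coli* library 1, and 2 without *E. coli* library 2 or libraries 1 or 2 of both stimuli. Fc receptor genes numbered 2 higher and 2 lower of 7 (median 0.32, corrected 0.14), *Fcgr4* rising by 1.75 and *Fcgr1* falling with a log2 fold change of -0.60 with overlapping groups, and the number lower was 0 under DESeq2, with its size factors in edgeR, after correction for the ceiling and without *E. coli* library 3 or libraries 1 or 2 of both stimuli, and 1 without *E. coli* library 1 or library 3 of both stimuli. Of 16 complement genes 7 were called higher and 2 lower (median 0.31). *Serping1*, the C1 inhibitor, rose by 4.12, *C3* by 2.11 and *C4b* by 2.15, while *Itgax*, a chain of complement receptor CR4, fell with a log2 fold change of -0.82, and under DESeq2 1 was called lower. *C1qb* and *C1qc*, among the macrophage markers above, rose by 1.27 and 0.92.

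Genes that mark eosinophils fell more often than they rose, 11 against 3 of 24, with a median of -0.23 (-0.50 after correction for the ceiling, which left 1 higher). *Siglecf*, the inhibitory lectin by which mouse eosinophils are recognised, was at 952, 1167 and 942 CPM unstimulated, 659, 622 and 626 CPM with *E. coli* alone and 353, 322 and 371 CPM with both (log2 fold change -0.87, SE 0.12, edgeR adjusted p = 2.0e-05). *Siglecg* was at 315, 317 and 281 CPM and then 55.5, 59.7 and 49.5 CPM (log2 fold change -2.47, SE 0.13, edgeR adjusted p = 4.6e-11). The RNA of both Siglecs was lower in every library with IFN-γ added. *Cebpe*, the transcription factor of granule formation, fell with a log2 fold change of -0.84, *Prg2*, major basic protein, with one of -0.94, *Ear6*, an eosinophil ribonuclease, with one of -0.77 and *Tgfbi*, a matrix protein gene, with one of -2.43. The IL-5 receptor gene *Il5ra*, at 0.07, *Gata1*, at 0.19, and *Ccr3*, at 0.23 (corrected -0.17), were not called. *Csf2rb*, the chain shared by the receptors for IL-5, IL-3 and GM-CSF, rose by 0.61 near the ceiling, where the corrected value is 0.14. Among 12 genes of the type 2 response 4 were called higher and 6 lower (median -0.27, and -0.72 after correction for the ceiling, with 7 lower). The lower ones included *Il4ra*, the IL-4 receptor, at -0.95, *Il1rl1*, the receptor for IL-33, at -0.46 (corrected -0.73), *Alox5* at -0.61 (corrected -0.93) and *Ptgs1* at -1.22, and the higher ones *Ptgs2*, inducible cyclooxygenase, at 1.94 and *Il13ra1* at 2.04.

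Receptors for chemoattractants and adhesion molecules were called higher in 14 and lower in 4 of 28 cases (median 0.35). Under scaling by library totals 10 were called higher and 7 lower (median 0.12). *Cxcr2*, through which neutrophil-attracting CXC chemokines act, was at 30.2, 22.8 and 25.6 CPM unstimulated, 97.5, 83.9 and 83.9 CPM with *E. coli* alone and 21.9, 16.4 and 9.89 CPM with both (log2 fold change -2.47, SE 0.20, edgeR adjusted p = 2.4e-08). Each library with both stimuli lay below each with *E. coli* alone. *Ltb4r1*, the high-affinity leukotriene B4 receptor, fell with a log2 fold change of -1.68. *Ccrl2*, a non-signalling chemerin receptor, rose by 2.38, *Fpr2*, a formyl peptide receptor, by 1.82, *Icam1* by 1.10 and *Cxcr4* by 1.06 on the log2 scale. *Marco*, a scavenger receptor that is also a macrophage marker, rose by 3.05, from 46.1, 37.4 and 66.7 to 321, 435 and 469 CPM, without overlap. *Csf1r*, another macrophage marker, was at 385, 353 and 424 CPM with *E. coli* alone and 413, 367 and 409 CPM with both, and its log2 fold change of 0.03 was not called.

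The genes of glycolysis and of the response to low oxygen rose nearly to the last, with 36 of 37 called higher, 0 lower and a median of 1.75. *Vegfa*, a growth factor for vessels, was at 18.3, 18.4 and 26.0 CPM unstimulated, 107, 122 and 112 CPM with *E. coli* alone and 1158, 983 and 1166 CPM with both (log2 fold change 3.28, SE 0.17, edgeR adjusted p = 5.8e-11). *Bnip3*, which directs mitochondria to autophagy, rose from 132, 146 and 163 to 1169, 1072 and 1239 CPM (log2 fold change 2.98, SE 0.16, edgeR adjusted p = 7.0e-11), and *Slc2a1*, a glucose transporter, from 184, 184 and 186 to 546, 409.8 and 651 CPM (log2 fold change 1.53, SE 0.17, edgeR adjusted p = 1.1e-06). All 3 genes were lowest in unstimulated cells, between the extremes with *E. coli* alone and highest with both. *Pfkfb3*, which drives glycolytic flux, rose by 2.92, *Hk2* by 1.00, *Ldha*, lactate dehydrogenase, by 1.08 (corrected 1.45) and *Egln3*, an oxygen-sensing prolyl hydroxylase, by 2.28 (corrected 2.80) on the log2 scale. *Hif1a* itself rose by 0.37 (corrected 0.28), and *Pfkfb4*, at -0.15, was not called. Of 18 cholesterol and lipid genes 7 were called higher and 1 lower, with a median of 0.15 that was -0.08 under scaling by library totals; *Scd2*, a fatty acid desaturase, and *Abca1*, which exports cholesterol, rose by 3.53 and 1.31. Among 12 genes of lysosomal proteases 6 were called higher and 0 lower (median 0.39), *Ctsb* by 1.09 and *Lgmn* by 1.04.

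Of 15 BCL2 family genes 5 were called higher and 5 lower (median 0.25). All 5 lower ones protect from apoptosis: *Bcl2l1*, which encodes BCL-XL, was at 64.8, 75.4 and 74.3 CPM unstimulated, 204, 201 and 207 CPM with *E. coli* alone and 90.6, 98.1 and 83.1 CPM with both (log2 fold change -1.17, SE 0.13, edgeR adjusted p = 1.1e-06), and *Bcl2*, *Bcl2a1a*, *Bcl2a1b* and *Bcl2a1d* fell with log2 fold changes of -1.79, -1.13, -1.06 and -1.35. The last 3 share over 98% of their transcript and cannot be told apart with certainty. For all 5 genes the groups did not overlap. Of the higher ones, *Bcl2l11* and *Pmaip1*, which encode the death-promoting proteins BIM and NOXA, rose by 1.58 and 1.45, and *Mcl1*, which protects, rose by 0.73 (corrected 0.81). Among 13 genes of death receptors and the extrinsic pathway 7 were called higher and 1 lower (median 0.37), and 0 were lower without *E. coli* library 1, without *E. coli* library 2 or without library 2 of both stimuli. Of 17 genes of transcription factors named for type 1 activation 9 were called higher and 4 lower (median 0.76), led by *Klf4*, at 3.26, 2.67 and 5.92 CPM with *E. coli* alone and 29.9, 49.9 and 32.3 CPM with both (log2 fold change 3.30, SE 0.30, edgeR adjusted p = 6.5e-08), without overlap, and *Batf2*, by 2.27, while *Batf*, *Batf3* and *Klf2* fell with log2 fold changes of -1.36, -1.19 and -1.09.

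IFN-γ was also given without *E. coli*, and there 1541 genes (15.6%) were called higher and 1579 (16.0%) lower than in unstimulated cells, from libraries that the comparison above does not use. Under scaling by library totals 970 were higher and 2448 lower there. Whether the effect of IFN-γ depended on *E. coli* was tested as the difference of these log2 effects, and 457 genes (4.62%) were called, 255 with a more positive and 202 with a more negative effect when *E. coli* was present. The number was 286 without *E. coli* library 1, 270 without *E. coli* library 2, 266 without unstimulated library a and 294 without library 2 of both stimuli. *Cxcl3* is 1 example. It was at 124, 106 and 152 CPM unstimulated, 933, 1057 and 1177 CPM with IFN-γ alone, 1161, 1114 and 1380.0 CPM with *E. coli* alone and 2481, 2121 and 2414 CPM with both, so that its log2 effect of IFN-γ was 3.04 without and 0.94 with *E. coli* (difference -2.10, SE 0.20, edgeR adjusted p = 4.6e-06; corrected difference -1.96). Of the hypoxia and glycolysis genes, 14 were called here, 13 with a smaller rise under *E. coli*, and 17 after correction for the ceiling, 16 of them with the more negative effect. *Mif* rose by 3.39 without and by 1.71 with *E. coli* (corrected 2.03; difference -1.69, edgeR adjusted p = 8.2e-05; corrected difference -1.73). Of the type I interferon stimulated genes, 15 were called (19 after correction), all with the more positive effect under *E. coli*, among them *Ifit2* (difference 1.33, edgeR adjusted p = 0.00394).

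For a few genes the direction itself turned. Of the 457, 16 genes were called higher with IFN-γ alone and lower when *E. coli* was present, and 31 the reverse. *Trem1* is of the former kind, with a log2 effect of 1.60 without and -0.89 with *E. coli* (difference -2.49, edgeR adjusted p = 3.7e-06). *Tiam1*, a guanine exchange factor for Rac named here after its values were seen, had 1.20 and -1.67 (difference -2.88, edgeR adjusted p = 3.1e-04). *Tlr4* and *Il13* were called lower with *E. coli* present and not called without, at 0.42 and 0.61, and their differences of -1.58 and -1.60 were called (edgeR adjusted p = 7.9e-04 and 0.0139). Of the 31, *Cd79a*, *Cd79b*, *Ms4a1*, *Ighm* and *Igkc* are B cell markers, with differences of 2.32, 2.92, 2.68, 2.46 and 2.48, and the B cell sums in all 4 groups are given above. *Egr1*, an immediate early gene, had a log2 effect of -2.19 with IFN-γ alone and of 0.79 with *E. coli* present (difference 2.98, edgeR adjusted p = 7.1e-07).

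**Figure D4:**
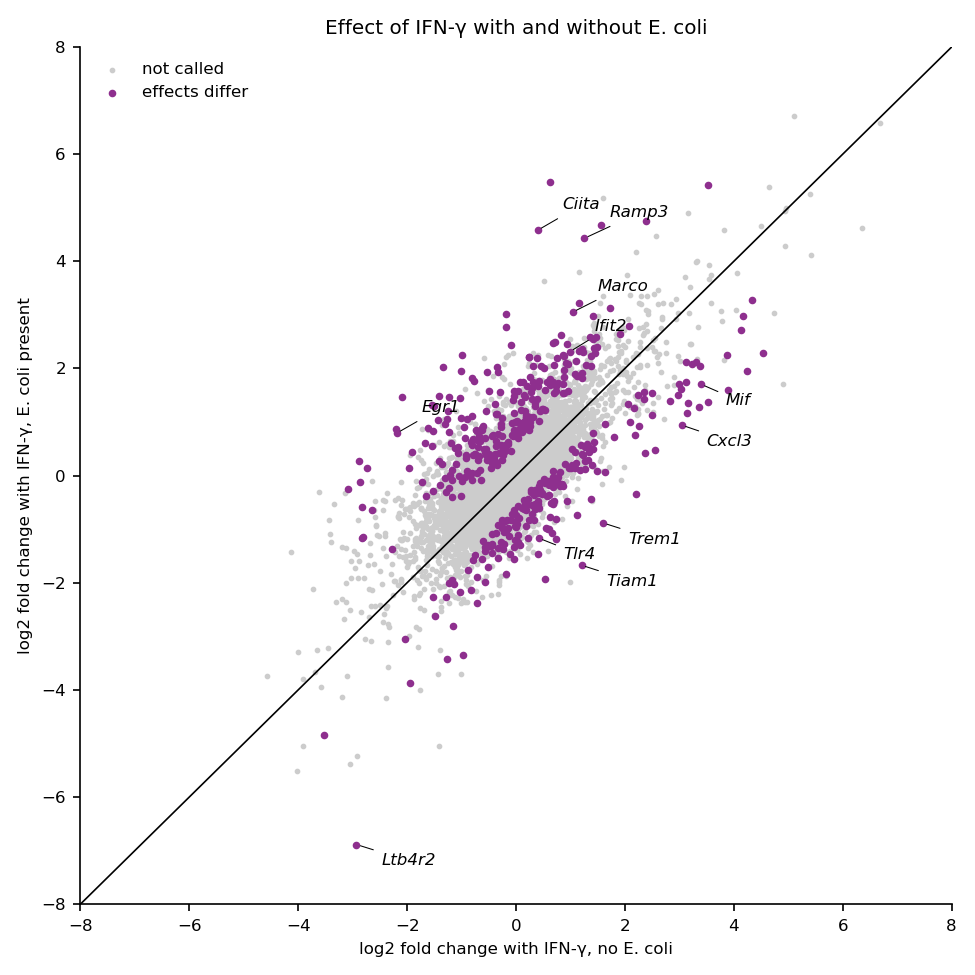
Log2 fold change with IFN-γ when *E. coli* was present (vertical axis) against that without *E. coli* (horizontal axis) for the 9883 genes tested, 1 dot per gene, with the 457 genes whose effects differed in darker colour and genes named in the text labelled. The diagonal marks equal effects, and the axes share no library; *Cxcl3*, *Trem1* and *Mif* lie below the diagonal and *Ifit2*, *Ciita* and *Marco* above it.

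The promoters of genes that rose were searched for the letters of GAS and of the site that the interferon regulatory factors bind, since both sites are used downstream of the cytokine. Sequences are those of RefSeq on GRCm38.p6, the 250 bases before a gene's start, and 77.5% of the genes tested could be matched to one. The other genes could not be searched, and shares of called and other genes were not tested against each other. No comparison is drawn from such shares. GAS was searched as TTCNNNGAA and the core of the interferon-stimulated response element (ISRE) as GAAANNGAA, each on both strands. Of the 21001 promoters of genes in the files, 6.81% held GAS, 6.94% held ISRE and 0.767% both. Shown are the 6 genes with the largest fitted rises that hold either, with GAS and ISRE letters in capitals and 30 bases around them where the window allows, each read 5′ to 3′ along the gene's strand. They lie at chr5:92328216-92328284 (*Cxcl9*), chr11:48927219-48927298 (*Gm12185*), chr12:104236084-104236146 (*Serpina3g*), chr12:104214387-104214461 (*Serpina3f*), chr10:34127998-34128066 (*Calhm6*) and chr15:97056158-97056206 (*Slc38a4*).
Cxcl9: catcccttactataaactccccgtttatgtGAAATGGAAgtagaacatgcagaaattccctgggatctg
Gm12185: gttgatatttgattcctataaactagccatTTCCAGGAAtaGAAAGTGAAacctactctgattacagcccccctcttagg
Serpina3g: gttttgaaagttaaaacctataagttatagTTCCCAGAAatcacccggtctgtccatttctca
Serpina3f: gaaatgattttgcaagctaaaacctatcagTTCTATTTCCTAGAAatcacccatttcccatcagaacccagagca
Calhm6: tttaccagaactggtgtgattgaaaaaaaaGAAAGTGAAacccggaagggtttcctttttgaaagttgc
Slc38a4: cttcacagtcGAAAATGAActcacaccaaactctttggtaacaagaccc
In *Cxcl9* the capitals are an ISRE match that starts 175 bases before the gene's start, in *Gm12185* a GAS and an ISRE match 86 and 75 bases before it, in *Serpina3g* a GAS match 33 bases before, and in *Calhm6* and *Slc38a4* ISRE matches 64 and 240 bases before. In *Serpina3f* an ISRE match on the other strand, 127 bases before, overlaps a GAS match at 121. *Slc38a4*, an amino acid transporter gene, had at most 3 counts in each library with *E. coli* alone and rose at least 8.16-fold. For *Gm12185* the start is that of 1 of its transcripts, 65044 bases from the start of the longest. A match says only that these letters are there.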

How the data were processed

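The deposited files hold whole counts per Ensembl gene, 1 file per library, made by the authors from CEL-Seq2 libraries. Per the labels, reads were aligned to GRCm38 with TopHat2 2.1.0 and uniquely mapped reads counted with HTSeq 0.6.1 in union mode; the paper also gives fastp 0.20.1 for trimming and STAR 2.7.2a for alignment, and does not say which libraries that covers. Whether identifiers were collapsed and whether strand was used in counting are not stated. The 5 HTSeq summary lines, which held 21.1 to 39.4% of the counts of a library, were dropped, and 55029 genes were kept. Of 18 libraries, 12 have the same list of genes and were fitted together; the other 6, a separate set of unstimulated and IL-4 libraries, were left out because they hold neither stimulus and list other genes.

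Counts were tested with edgeR 4.0.16 under R 4.3.3 (filterByExpr by group, TMM factors, quasi-likelihood test on group means) and called at a Benjamini-Hochberg adjusted p under 0.05 over the 9883 genes kept. The contrasts were IFN-γ with *E. coli* against *E. coli* alone, IFN-γ alone against unstimulated, and their difference. Standard errors are the log2 fold change over the square root of F. Depth was 1523808 to 2734041 counts per library of the 12, and the spread between libraries was a common biological coefficient of variation of 0.118; pairs of libraries in a group differed by a chi-square per gene of 1.59 to 5.46, where counting error alone gives 1. Where a group had at most 3 counts in each library, the fold is a bound that sets it at 3 counts per library, and apart from the lists given, no list median changed with such genes at their bound. For the ceiling correction, the share of the 4096 identifiers seen was taken as filled at random, so that a count became 4096 times the negative natural logarithm of the share not seen.

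Named are the 15 rises and 15 falls with the largest fitted log2 fold changes among called genes whose groups did not overlap, with a mean of at least 10 CPM in the higher group, members of 26 gene lists and of the cell type markers, and the 6 genes with the largest fitted rises among called genes of that mean whose promoters hold GAS or ISRE; a gene named outside these is marked as chosen after its values were seen, unless it is named only for an overlap. Members, lists and markers were chosen with earlier results of these data known. No set test was run. Alternatives were DESeq2 1.42.0, its size factors in edgeR, library totals, no filter, at least 10 counts in every library, the 6 libraries alone, the replicate number as a block, each library left out, a 2-fold threshold and the ceiling correction. For the lists, the size factors, the library totals, the ceiling and the left-out libraries were chosen after seeing the data, as was the ceiling for the differences of effects of lists and single genes. Near copies are transcripts that match another gene over 200 bases at 95% or more (BLAST+ 2.17.0, GENCODE vM21). Promoter sequences are RefSeq's. The code was tested on simulated data. Figures were drawn with matplotlib 3.10.9.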

Additional observations from a re-analysis of the deposited data

Results flagged for a closer look

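A difference between the effect of IFN-γ with *E. coli* and its effect without is what marks the genes here, by the interaction term of the edgeR fit at an adjusted p under 0.05. Of the genes named above, 59 passed it, 35 with the more positive and 24 with the more negative effect under *E. coli*. The log2 effect was more positive with *E. coli* present, by the following differences: *Ramp3* 3.18, *Calhm6* 3.12, *Egr1* 2.98, *Cd79b* 2.92, *Ms4a1* 2.68, *Igkc* 2.48, *Ighm* 2.46, *Gm12216* 2.38, *Cd79a* 2.32, *Marco* 2.01, *Gbp8* 1.89, *Ccr7* 1.80, *Timd4* 1.62, *Cxcl1* 1.48, *Ifit2* 1.33, *H2-Aa* 1.23, *Herc6* 1.17, *Ifi47* 1.16, *Psmb9* 1.13, *Mx1* 1.12, *Stat2* 1.05, *Ccrl2* 0.95, *Gbp9* 0.94, *Pglyrp1* 0.91, *Nlrc5* 0.91, *Casp4* 0.85, *Parp14* 0.85, *Irgm1* 0.74, *Tapbpl* 0.73, *Irf1* 0.71, *Tap2* 0.70, *Isg15* 0.67, *Oasl2* 0.61 and *Psmb8* 0.61. It was more negative with *E. coli* present, by the following differences: *Tiam1* -2.88, *Trem1* -2.49, *Lama5* -2.38, *Egln3* -2.25, *Grm6* -2.16, *Ppbp* -2.15, *Cxcl3* -2.10, *Neb* -1.93, *Mif* -1.69, *Il13* -1.60, *Tlr4* -1.58, *Il13ra1* -1.34, *Car4* -1.32, *Bnip3* -1.19, *Il4ra* -1.14, *Vegfa* -1.06, *Slc2a1* -0.96, *Socs1* -0.81, *Socs2* -0.78, *Ccl3* -0.74, *Itgax* -0.73, *Tgfb1* -0.69 and *Klf2* -0.65. For 2 more genes of the 59, a group has at most 3 counts in each library, so the fitted difference is no measured size: it is 4.18 for *Ciita* and -3.96 for *Ltb4r2*, and with that group set at 3 counts per library it is 2.28 and -1.14. After correction of the counts for the ceiling 56 of the 59 kept sign and call, and *Ccl3*, *Vegfa* and *Klf2*, at -0.45, -0.88 and -0.64, did not pass. Of the 12 genes with more than 2048 counts in any of the 12 libraries, the corrected differences of the other 11 were -1.96 for *Car4*, -1.96 for *Cxcl3*, -2.23 for *Egln3*, 1.29 for *Ifi47*, 0.67 for *Irf1*, 0.79 for *Isg15*, -1.73 for *Mif*, 0.69 for *Oasl2*, 1.25 for *Pglyrp1*, -1.16 for *Socs1* and -1.05 for *Socs2*. Groups of 3 libraries were not searched for a library far from the others.

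Among these are 5 B cell markers and the macrophage markers *Marco* and *Timd4*. Their sums differ between the 4 groups as given above, and the part of such cells in the other differences was not tested.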

How the results depend on the processing

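Under every alternative from 1337 to 1783 genes were called higher and from 1076 to 1619 lower, except for library totals, with 1097 higher and 2859 lower, and the 2-fold threshold, with 753 and 572, which keeps fewer genes by construction. The cause of the former was not tested. For the difference of effects, 457 genes as reported, the numbers ran from 266 to 562 with 1 library left out, and for IFN-γ alone from 2220 to 3487. Without *E. coli* library 3, which stood above the others of its group in B cell and macrophage markers, 1679 genes were higher and 1333 lower. The correction for the ceiling turned *Ccl6* to -0.35 and *Ccl9* to -0.10. Of 191 named genes that were called, 175 kept direction and call in each alternative fit that tested them, and 0 others reversed; 139 of the 191 were tested in all of these fits, and 154 changed by a factor of 2 or more. Lists held 274 members called higher and 57 lower, and with the alternatives from 239 to 279 and from 45 to 83. Among promoters of genes called higher 5.70% held GAS and 9.97% ISRE, against 5.77% and 6.87% among all genes tested; with 50 bases after the start included these were 6.67%, 11.7%, 6.81% and 7.99%. No comparison is drawn from them, as said above.

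The labels give both groups the numbers 1 to 3. Deviations from the group means of libraries with the same number had correlations of 0.0706, 0.0986 and 0.163. For libraries with different numbers they ran from -0.238 to 0.197, with both signs, and not every library correlated best with its own number. The numbers were not taken to pair the libraries, but whether they mark pairs is not known. With the replicate block, fitted on the 6 libraries alone, 1685 genes were higher and 1457 lower, and 277 and 59 list members. The same 6 libraries without the block gave 1517 genes higher and 1366 lower.

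Depth limits what can be said of scarce genes, as 3 counts equal 1.00 to 2.19 CPM, and the ceiling what can be said of abundant ones.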

Other observations

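Gene families that were not themselves lists above were looked at after values had been seen. Some of their members are in those lists, such as *Siglecf*, *Siglecg*, *Siglece*, *Psmb8*, *Psmb9*, *Psmb10*, *Wars* and *Serping1*. The counts of these families partly repeat results given above for that reason. The family counts stand against 17.5% higher and 15.3% lower among all genes tested. Of 75 genes of mitochondrial ribosomal proteins 1 was called higher and 28 lower with IFN-γ added to *E. coli*, with a median log2 fold change of -0.52, and of 35 subunits of respiratory complex I 1 was higher and 14 lower, with a median of -0.32. The numbers lower were 50 and 27 under library totals, and 20 and 9 under DESeq2. Of the 13 genes of proteins encoded in mitochondrial DNA 11 were called higher and 0 lower, with a median of 0.61 (0.44 after correction for the ceiling). Since 9 of the 13 are near the ceiling, no direction is read for this family. Cytosolic ribosomal proteins had a median of 0.17, with 14 of 79 higher and 1 lower, which was -0.06 under library totals, with 4 higher and 9 lower, and 8 were higher after correction for the ceiling.

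Of 13 serpins 11 were called higher and 1 lower, with a median of 2.23. After correction for the ceiling 10 serpins were higher, with a median of 2.64, and 1 serpin changed sign. Of 6 Siglec receptors 5 were lower and 0 higher, with a median of -1.15. Proteasome subunits, with 12 of 34 higher and 1 lower, had a median of 0.11 that was -0.13 under library totals, with 4 higher and 7 lower. Cytosolic aminoacyl-tRNA synthetases, with 2 of 20 higher and 3 lower, had one of 0.12 that was -0.11, with 2 higher and 5 lower, and under DESeq2 1 was lower. Heat shock and DnaJ proteins, with 15 of 49 higher and 6 lower, had one of 0.21 that was -0.02, with 7 higher and 11 lower.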
